A study of Mus musculus with 16 samples.

Results

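Gene expression was compared among the 7 clonal lines of MEF-2, named MEF2-1 to MEF2-7 here, which are 7 of the 16 lines with total RNA-sequencing in the series. The other lines are the MEF-2 parental line, the MEF-1 parental line and 7 clonal lines of MEF-1. The 7 lines were taken by their labels alone, and for each of the 15278 protein-coding genes with a 16-line mean above 0, out of 21810 protein-coding genes in the table, the range and the standard deviation (SD) over the 7 lines were computed. The study asked how faithfully DNA methylation is passed on when a fibroblast line is grown again from single cells, and the RNA was sequenced to set methylation beside transcription.

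Both parental lines are mouse embryonic fibroblasts (MEFs) from C57BL/6J embryos of day 13.5, the MEF-1 embryo being male and the MEF-2 embryo female. They were immortalised by passage through crisis, and single cells were then sorted by flow cytometry and grown into cultures before RNA was taken. None of the lines carries an engineered allele or had a treatment. A line is therefore 1 clone with 1 library, so that clonal differences and differences between libraries cannot be told apart, and no line has an error of its own. The libraries were made from RNA depleted of ribosomal RNA with a directional kit, and per the labels the fragmentation time was set by the integrity of each RNA.

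The values are rlog values, log2-scaled normalised counts in which lines are pulled together around the gene average, the more so the fewer reads a gene has. A difference of 1 stands for a 2-fold difference before that shrinkage. The file holds no counts, so the depth behind a value is unknown, and differences of low genes are understated. Values of single lines are given as deposited. Ranges, SDs and gaps between lines are computed after the median of each chromosome in each line had been taken away, so that a line with 1 chromosome lower throughout does not count as a difference at every gene on it. Levels are not comparable between genes, since they are not divided by gene length.

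Fibroblasts are mesenchymal cells that make collagens, proteoglycans and other matrix proteins. They can take on a contractile state with smooth-muscle actin and calponin, and they keep positional transcription factors from their place of origin in the embryo. When a population is reduced to single cells and each is grown again, a state that the founder cell held and that its daughters copy becomes the state of the whole line, whereas a state that flickers from cell to cell is averaged out again. Growth conditions at harvest, such as density and serum, act on every cell of a culture and leave their mark on cell cycle, stress and immediate early genes.

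The label as fibroblasts was checked against marker genes. Of 24 fibroblast markers 20 stood at 8 or more in all 7 lines, the medians of the lines ran from 15.23 to 15.85, and Dcn (5.77 to 7.24) and Fap (2.51 to 3.76), a small proteoglycan and a surface protease of fibroblasts, stayed below 8 in all of them. Genes of other cell types that reached 8 in any line were 2 of 30 skeletal muscle genes, 6 of 30 neuronal, 3 of 19 glial and neural crest, 5 of 30 epithelial, 5 of 21 endothelial, 3 of 32 macrophage and blood cell and 1 of 39 germline genes. Xist, the RNA of the inactive X chromosome, lay between 15.28 and 15.82 in the MEF-2 clonal lines. The Y-linked Ddx3y lay between 5.58 and 5.68 there, against 10.46 to 12.37 in the MEF-1 clonal lines. Pearson's r across genes, as deposited, was between 0.987 and 0.996 for the 21 possible pairs among these 7 lines.

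Most genes differed little among the clones. The median gene had a range of 0.447 over the 7 lines, a 1.36-fold difference between the highest and the lowest line, and a median SD of 0.159. A range of 1 or more was found for 2729 genes (17.9%), of 2 or more for 711 (4.65%) and of 4 or more for 54 (0.353%). The spread depended on the level. The median SD was 0.26 for genes with a mean up to 5, 0.37 between 5 and 8, 0.18 between 8 and 10 and 0.11 above 10, so gene groups were set against genes of like mean: the SD of each gene was divided by the median SD of the 500 genes nearest to it in the 16-line mean. As the values carry no test within 1 clone, these ranges and the line patterns below are descriptions.

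Among genes above the 60th percentile of the mean (9.96), the 5 with the smallest SD were Sugp1, Rbm7, Smc1a, Tnrc6a and Dolk. Genes near their lowest level included narrower ones, such as the Y-linked Kdm5d with an SD of 0.000223. Sugp1, a splicing factor, lay between 11.82 and 11.88 in all 7 lines, and Rbm7, an RNA-binding protein of the nuclear exosome targeting complex, between 12.14 and 12.19. Smc1a, a subunit of the cohesin ring on the X chromosome, read 13.37, 13.42, 13.39, 13.37, 13.37, 13.38 and 13.36 in MEF2-1 to MEF2-7. Tnrc6a, a partner of Argonaute in microRNA silencing, lay between 13.78 and 13.84. The SD was 0.0175 for Rbm7 and 0.0182 for Smc1a. In the MEF-1 clonal lines these SDs were 0.0996 and 0.107. Dolk, a dolichol kinase of the glycosylation pathway, was among the narrowest only after the chromosome median was taken away: it lies on chromosome 2 and read 10.42 in MEF2-3 against 10.64 to 10.68 in the other 6.

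RNA polymerase II and Mediator subunits, which carry out and regulate transcription of protein-coding genes, were the narrowest of the 43 gene lists described. Their 40 measured genes had a median SD of 0.076, 0.60 times that of genes of like mean, 10 of them were in the lowest 10% of all SDs and 0 had a range of 1 or more. The widest was Med30 with a range of 0.51. The catalytic subunit gene Polr2a was the narrowest, reading 14.81, 14.86, 14.87, 14.84, 14.85, 14.85 and 14.79 across the 7 lines. The 75 mitochondrial ribosomal proteins were next (0.69 times, 18 in the lowest 10%, widest Mrps28 with 0.70), followed by the 34 ubiquitin-conjugating enzymes (0.74 times). In the latter, the widest gene was Ube2c, the partner of the anaphase-promoting complex in mitosis, at a range of 1.08. The 43 spliceosome components stood at 0.80 times, from Sf3b1 with a range of 0.07 to Snrpn with 1.20, an imprinted gene. The 33 Polycomb genes, which keep repressed chromatin, stood at 0.88 times, with the widest range in Cbx7 (1.41).

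Cytosolic ribosomal proteins differed with a shared direction. The 83 genes had a median SD of 0.113, 0 of them were in the highest and 3 (3.61%) in the lowest 10% of SDs, and MEF2-3 was the lowest of the 7 lines in 68 of 83, where MEF2-3 was lowest in 21.2% of all genes. The median deviation from the mean of the 7 lines was −0.19 in MEF2-3 and between −0.06 and 0.09 in the others. The 21 measured Hox genes, of 39 in the table, stood at 0.79 times, but the median of their 16-line means was 6.29 while the list medians of the MEF-2 clonal lines were only 3.69 to 4.31, so that this ratio sets them against genes of a higher level and says little of their spread. Hoxb4 was the widest with 1.66, standing at 6.13 in MEF2-3 and between 4.49 and 5.09 elsewhere.

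**Figure D1:**
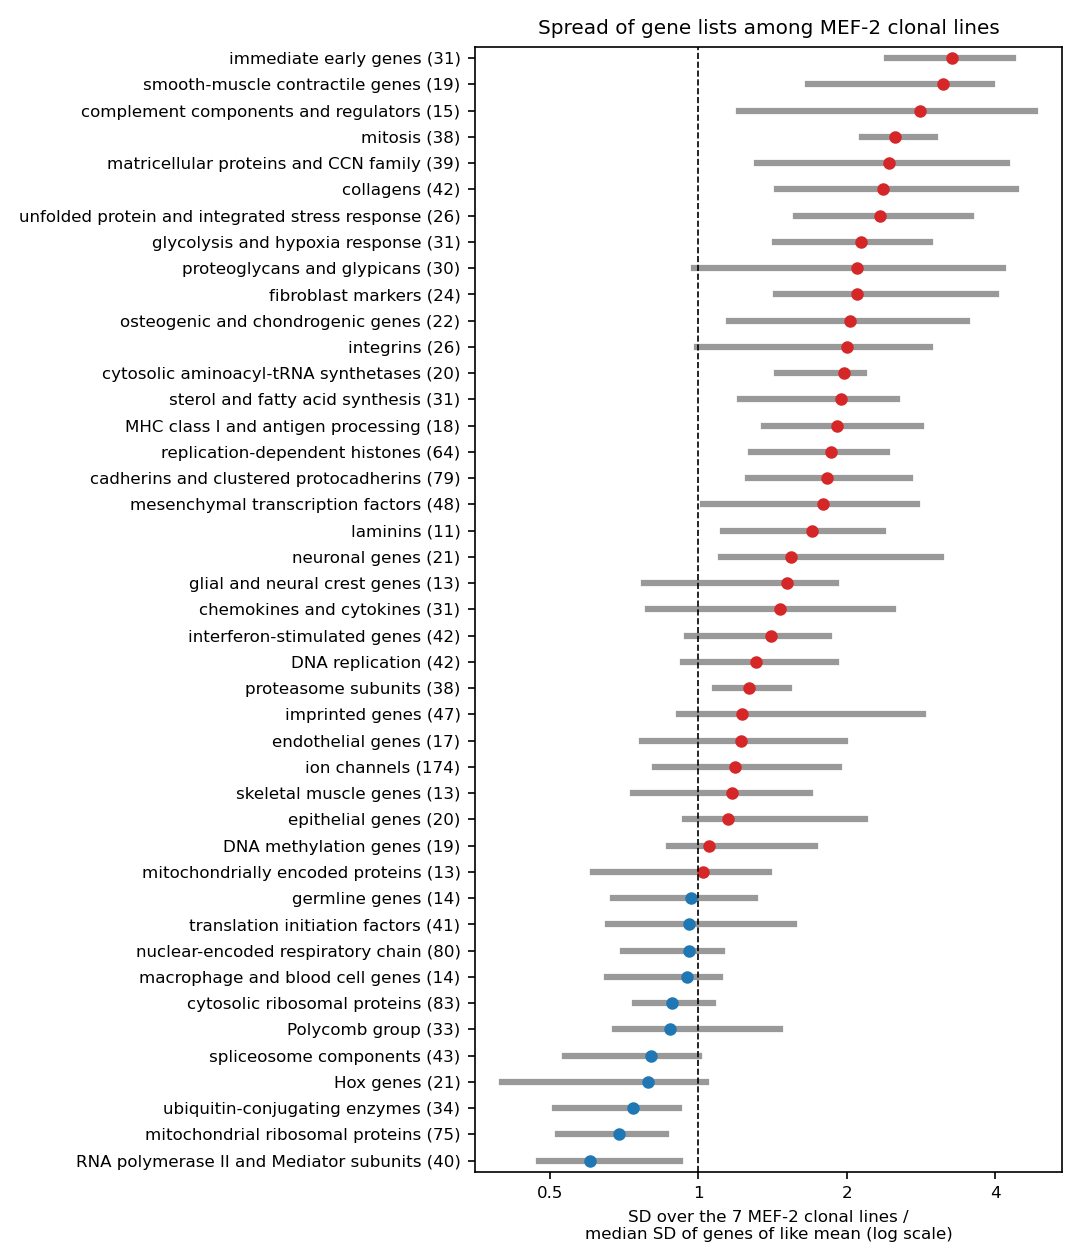
Spread of the 43 described gene lists among the 7 MEF-2 clonal lines. The x axis is the SD of a gene over the 7 lines divided by the median SD of the 500 genes nearest in mean (ratio, log axis), a row is a list with its number of measured genes, the point is the median of the list (red above 1, blue below), the grey bar spans its quartiles, and the dashed line marks 1, the level of genes of like mean. RNA polymerase II and Mediator subunits stand lowest at 0.60 and immediate early genes highest at 3.27.

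The promoters of 3 narrow genes are shown as examples, which do not stand for narrow genes as a set. The windows are RefSeq sequence of GRCm38.p6, from 250 bases before to 50 after the annotated start, with every CpG in capitals. They hold 23 CpG for Smc1a (chrX:152016178-152016477, plus strand), 37 for Rbm7 (chr9:48495281-48495580, minus strand) and 30 for Polr2a (chr11:69758584-69758883, minus strand), against a median of 19 and quartiles of 9 and 28 over the 14939 windows of genes in the table. The letters TATAAA occur on either strand in the Polr2a window, as in 7.61% of all windows.
Smc1a: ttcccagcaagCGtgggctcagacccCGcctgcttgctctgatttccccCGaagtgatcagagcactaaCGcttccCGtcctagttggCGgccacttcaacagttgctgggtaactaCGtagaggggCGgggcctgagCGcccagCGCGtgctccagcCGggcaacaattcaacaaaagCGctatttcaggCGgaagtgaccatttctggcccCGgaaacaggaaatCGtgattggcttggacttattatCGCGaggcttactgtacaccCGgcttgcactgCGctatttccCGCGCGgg
Rbm7: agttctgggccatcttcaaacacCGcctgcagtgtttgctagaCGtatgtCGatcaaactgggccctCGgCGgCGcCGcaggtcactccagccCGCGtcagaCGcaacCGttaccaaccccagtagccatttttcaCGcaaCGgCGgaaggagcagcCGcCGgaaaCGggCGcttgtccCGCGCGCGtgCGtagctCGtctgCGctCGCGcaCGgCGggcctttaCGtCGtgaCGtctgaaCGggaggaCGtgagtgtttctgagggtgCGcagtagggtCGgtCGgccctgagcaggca
Polr2a: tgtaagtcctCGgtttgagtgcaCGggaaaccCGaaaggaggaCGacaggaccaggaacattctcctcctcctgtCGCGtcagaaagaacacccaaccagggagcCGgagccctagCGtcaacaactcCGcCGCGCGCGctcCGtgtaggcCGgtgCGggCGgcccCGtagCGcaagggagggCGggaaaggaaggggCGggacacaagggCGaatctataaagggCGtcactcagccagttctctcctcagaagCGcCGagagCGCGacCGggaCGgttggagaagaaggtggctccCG

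At the other end, the lists that varied most for their level were immediate early genes, smooth-muscle contractile genes, complement components, mitosis, matricellular proteins and collagens. Immediate early genes, which answer growth factors and stress within minutes, had a median SD of 0.426, 3.27 times that of genes of like mean, and 22 of 31 were in the highest 10% on that scale. Their ranges were moderate: 20 of 31 reached 1, and 1 of 31 reached 2, which was Fosl1. Fosl1, a partner of Jun in AP-1, read 7.02, 8.20, 6.66, 7.79, 7.31, 7.68 and 8.92 in MEF2-1 to MEF2-7. Fos, another partner of Jun, had a different order, at 11.28, 11.59, 13.01, 12.40, 11.44, 11.13 and 11.54. Egr1, a zinc finger factor of the same response, read 12.66, 13.40, 14.38, 13.91, 12.65, 12.46 and 13.65. MEF2-7 was thus highest for Fosl1 and MEF2-3 for Fos and Egr1. Over the list, MEF2-7 was the highest line for 18 of 31 genes and MEF2-3 for 7, against 25% and 27.6% of all genes.

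Smooth-muscle contractile genes stood at 3.13 times the SD of genes of like mean. A range of 1 or more was reached by 12 of 19, against 17.9% of all genes. Actg2, an enteric smooth-muscle actin, read 13.41, 14.58, 10.79, 13.10, 14.50, 10.28 and 14.03. It was low in MEF2-3 and MEF2-6 and at 13.10 or more in the other 5. Myh11, the smooth-muscle myosin heavy chain, was low in the same lines, at 7.12, 9.51, 6.28, 7.96, 9.23, 5.75 and 7.89. The abundant Acta2, the actin of contractile fibroblasts, covered less: 17.98, 18.71, 17.66, 18.40, 18.14, 17.84 and 18.94. MEF2-7 was highest for 12 of 19 genes of the list and MEF2-3 lowest for 11, against 25% and 21.2% of all genes. The median deviation of the list was 0.41 in MEF2-7 and −0.44 in MEF2-3.

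Mitosis genes differed little in size but mostly with the same highest and lowest line. None of the 38 reached a range of 2 and 8 of 38 reached 1, yet MEF2-7 was highest for 34 and MEF2-6 lowest for 32, where these lines were highest and lowest for 25% and 16% of all genes. The medians of the list were −0.11, 0.26, −0.31, 0.07, 0.15, −0.44 and 0.37 in MEF2-1 to MEF2-7. Aurka, a mitotic kinase, read 10.58, 11.12, 10.14, 10.91, 10.91, 10.19 and 11.41. Cdc20, an activator of the anaphase-promoting complex, read 11.68, 12.12, 11.53, 11.83, 12.00, 11.30 and 12.39. Lines 2 and 7 were high and lines 3 and 6 low in both. The 64 replication-dependent histones, which are made in S phase and form near-identical families whose reads may be split between copies, were highest in MEF2-7 for 44 and lowest in MEF2-6 for 28. The 42 DNA replication genes had a median SD 1.31 times that of genes of like mean, and their high lines were others. MEF2-2 was highest for 21, MEF2-5 for 11 and MEF2-7 for only 8, against 11.7%, 7.84% and 25% of all genes. MEF2-3 was lowest for 20 and MEF2-6 for 19, against 21.2% and 16% of all genes.

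A contrast of MEF2-7 with MEF2-3 ran through 4 lists of stress response and metabolism, with MEF2-6 between −0.13 and −0.03 in each. MEF2-2 was the second highest line by median in 3 of them, and MEF2-4 in sterol and fatty acid synthesis (0.17, against 0.08 in MEF2-2). The 26 genes of the unfolded protein and integrated stress responses stood at 2.34 times the SD of genes of like mean and had medians of −0.18, 0.27, −0.37, 0.07, −0.01, −0.06 and 0.33, with MEF2-7 highest for 17 and MEF2-3 lowest for 16. Slc7a11, the cystine importer, was widest there, reading 10.75, 11.69, 10.00, 11.47, 11.27, 11.48 and 12.01. Trib3, a pseudokinase induced by ATF4, read 11.56, 12.89, 10.93, 12.66, 12.55, 12.75 and 12.96, so that MEF2-1 and MEF2-3 were the low lines for both. The 20 cytosolic aminoacyl-tRNA synthetases stood at 1.98 times, lowest in MEF2-3 for 18 and highest in MEF2-7 for 15. The 31 genes of sterol and fatty acid synthesis stood at 1.95 times, lowest in MEF2-3 for 25 and highest in MEF2-7 for 19, with a median of −0.42 in MEF2-3. Hmgcs1, which makes HMG-CoA for sterols, read 13.54 in MEF2-3 and 14.11 to 14.42 in the other lines. Glycolysis and hypoxia genes (31 genes, 2.14 times) were highest in MEF2-7 for 17 and lowest in MEF2-3 for 14. Slc16a3, the lactate exporter, led them at 8.81, 10.33, 9.28, 9.89, 9.58, 9.66 and 10.83. The contrast was not particular to these lists. MEF2-7 was highest and MEF2-3 lowest for 31 and 27 of 38 proteasome subunits and for 37 and 53 of 80 respiratory chain genes. For 41 translation initiation factors the counts were 22 and 26, and for 75 mitochondrial ribosomal proteins 39 and 33. Over all genes the shares were 25% and 21.2%. Among 83 cytosolic ribosomal proteins MEF2-7 was highest for only 10.

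Antigen presentation and complement genes had other high lines. The 18 genes of MHC class I and antigen processing stood at 1.91 times the SD of genes of like mean, with medians of 0.20, −0.13, 0.42, −0.31, 0.25, −0.33 and −0.31, high in MEF2-1, MEF2-3 and MEF2-5. H2-D1, a classical class I heavy chain, read 13.69, 12.94, 13.77, 12.89, 13.96, 12.97 and 12.94. H2-K1, the other classical heavy chain, read 13.45, 12.69, 13.44, 12.54, 13.56, 12.64 and 12.60. Both had 3 lines at 13.44 or more and 4 lines at 12.97 or less, with none between. H2-Q4 covered more, at 9.90, 7.93, 10.63, 7.64, 10.51, 7.54 and 8.15. These genes are near-identical paralogues whose reads may be shared, so the 3 are not independent. B2m, the light chain they share, had a range of only 0.44. The immunoproteasome subunit gene Psmb9 was the widest of the 38 proteasome genes (1.62) and read 6.79, 6.04, 7.18, 5.92, 6.83, 5.57 and 5.55, which puts the same 3 lines highest.

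The 15 measured complement genes stood at 2.82 times, with a median of 0.55 in MEF2-3 and −0.38 in MEF2-7. C4b, a component of the classical pathway, read 10.29, 8.48, 12.57, 9.15, 8.98, 10.00 and 8.32. C1s1, a serine protease of the first complex, read 9.52, 8.50, 11.73, 9.65, 9.80, 9.10 and 8.09. C1ra, its partner protease, read 11.08, 9.96, 12.54, 10.98, 11.47, 10.61 and 9.46. In each, MEF2-3 was above the others and MEF2-7 lowest. Of 42 interferon-stimulated genes 3 (7.14%) reached a range of 2, against 4.65% of all genes, the widest being Ifit3b (2.72). MEF2-3 was highest for 16 and MEF2-7 lowest for 19, against 27.6% and 20.6% of all genes. The median SD of the list was 1.40 times that of genes of like mean. Among 31 chemokines and cytokines, 9 (29.0%) reached a range of 2. Cxcl15 was widest at 3.79, and MEF2-7 was highest for 14, against 25% of all genes.

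Matrix genes varied widely, while the list medians of the collagens differed little between lines. The 42 collagens stood at 2.37 times the SD of genes of like mean, with 20 in the highest 10% of SDs, 14 reaching a range of 2, and list medians of between −0.09 and 0.03 in the 7 lines. MEF2-2 and MEF2-6 were each highest for 13 collagens, against 11.7% and 11.6% of all genes. MEF2-3 and MEF2-7 were lowest for 9 each, against 21.2% and 20.6%. MEF2-6 was also highest for 9 of 30 proteoglycans and 9 of 39 matricellular proteins. The basement membrane collagens Col4a1 and Col4a2, which lie head to head and share a promoter region, had the same order of lines: Col4a1 read 14.79, 13.70, 12.70, 14.36, 11.51, 15.04 and 13.38, and Col4a2 14.63, 13.50, 12.70, 14.06, 11.50, 14.91 and 13.12. MEF2-5 was lowest and MEF2-6 highest for both. The fibrillar Col1a1 had a range of 0.82. Among 39 matricellular proteins 11 reached a range of 2. The widest was Ccn3, a growth-restraining member of the CCN family, at 14.04, 11.63, 14.94, 12.82, 13.05, 15.08 and 11.07. Postn, periostin, read 16.31, 15.10, 17.27, 16.12, 17.03, 17.04 and 14.93. MEF2-2 and MEF2-7 were the lowest lines for both genes. Of 30 proteoglycans and glypicans 8 reached a range of 2, led by Gpc3, a glypican that binds growth factors, which read 14.16, 12.98, 9.48, 12.43, 9.52, 14.03 and 11.65.

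In some lists of lineage identity genes MEF2-6 was often the highest line, as it was for collagens and proteoglycans. The 48 mesenchymal transcription factors stood at 1.79 times the SD of genes of like mean, 4 of them reached a range of 2, and MEF2-6 was the highest line for 18, where it was highest for 11.6% of all genes. Gata6, a zinc finger factor of mesoderm and endoderm, read 7.96, 6.33, 6.54, 6.54, 5.81, 10.16 and 7.39. The 22 osteogenic and chondrogenic genes were highest in MEF2-6 for 13, with a list median of 0.29 there. Alpl, the bone alkaline phosphatase, read 3.69, 6.55, 5.75, 4.06, 6.25, 7.73 and 4.95. Thy1, a surface protein of many fibroblasts, was the widest of the fibroblast markers, at 6.96, 4.04, 3.83, 5.01, 3.42, 8.02 and 7.51. The parental line stood above all of them at 10.22. Stmn2, a regulator of microtubules best known from neurons, was the widest of the neuronal genes, at 10.10, 11.56, 10.94, 11.33, 8.96, 7.74 and 13.20. The 47 imprinted genes, which are expressed from 1 parental allele, stood at 1.23 times. Nnat was the widest, and Peg3 and Zim1, neighbours in an imprinted domain, were both lowest in MEF2-7, at 16.79 and 13.07. The other 6 lines ran from 17.49 to 18.44 for Peg3 and from 13.86 to 15.64 for Zim1. The 19 genes of DNA methylation stood at 1.05 times, the widest being Tet1, a methylcytosine dioxygenase, with 1.10, which read 11.98 in MEF2-6 and 10.88 in MEF2-7.

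**Figure D2:**
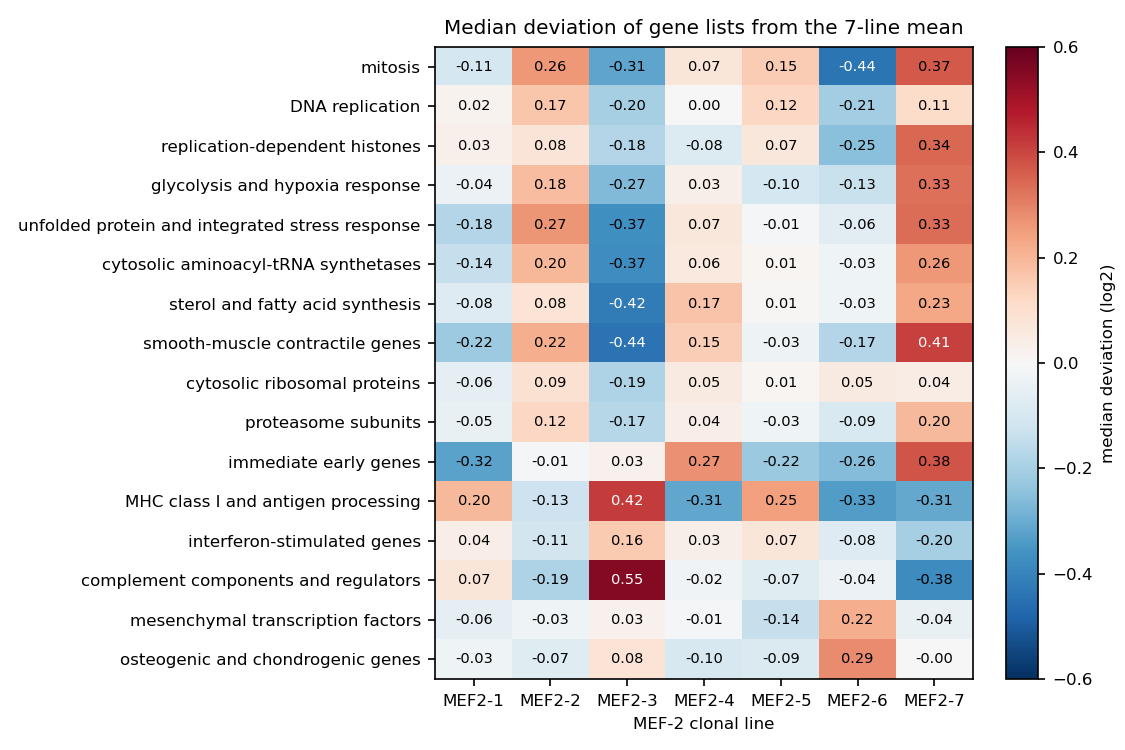
Median deviation of 16 of the gene lists in each MEF-2 clonal line. Columns are the 7 lines, rows the lists, and colour and the printed figure are the median over the genes of a list of the difference from the 7-line mean (log2, chromosome medians taken away). Mitosis runs from −0.44 in MEF2-6 to 0.37 in MEF2-7 and complement from −0.38 in MEF2-7 to 0.55 in MEF2-3.

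Across the 12385 genes with a mean of 5 or more, the deviations of the lines from the mean of the 7 were related. Pearson's r was 0.614 between MEF2-2 and MEF2-7, −0.613 between MEF2-6 and MEF2-7, −0.536 between MEF2-3 and MEF2-7, −0.521 between MEF2-2 and MEF2-6 and 0.221 between MEF2-3 and MEF2-6. These are descriptions over genes, which are not independent replicates, and the deviations of 7 lines from their own mean are by construction negative to each other on average. MEF2-3 and MEF2-7 also stood farthest from the rest gene by gene. MEF2-3 was the highest line for 27.6% of all genes and MEF2-7 for 25%, against 7.95% for MEF2-1, 11.7% for MEF2-2, 8.24% for MEF2-4, 7.84% for MEF2-5 and 11.6% for MEF2-6. The lowest line was MEF2-1 for 10.1%, MEF2-2 for 11.1%, MEF2-3 for 21.2%, MEF2-4 for 8.15%, MEF2-5 for 12.9%, MEF2-6 for 16% and MEF2-7 for 20.6%. The median absolute deviation of a line from the median of the 7 was 0.143 in MEF2-3 and 0.134 in MEF2-7, and 0.0646, 0.0968, 0.0545, 0.0518 and 0.0828 in MEF2-1, MEF2-2, MEF2-4, MEF2-5 and MEF2-6. With MEF2-3 and MEF2-7 left out, 1733 genes kept a range of 1 or more, 382 of 2 or more and 25 of 4 or more. RNA integrity, growth state and depth of each library were not measured in the files, and their part in these line patterns was not tested.

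Among single genes, Gm28635 had the largest range, with 13.78 in MEF2-7 and 0.66 to 0.86 in the other 6, but it overlaps Ctnnd1, Selenoh and Tmx2 on the same strand, so that reads may be assigned to it from them, and its value is uncertain. The same holds for Gm14440, 1 of a family of near-identical zinc finger genes (2.12, 7.47, 9.58, 2.10, 1.97, 1.97 and 2.06), and for Rps12-ps3, a copy of a ribosomal protein gene (5.72, 12.17, 11.81, 5.71, 11.86, 5.66 and 12.33). The gene 1700047I17Rik2, of unknown function, read 7.57, 9.74, 4.68, 10.63, 10.15, 10.13 and 4.59, low in MEF2-3 and MEF2-7.

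Nnat, neuronatin, an imprinted gene expressed from the paternal allele that codes for a small membrane protein, had a range of 7.27. It lies on chromosome 2 at 157560078 to 157562522 (mm10, plus strand) within an intron of Blcap, which runs on the other strand. It read 6.01, 3.22, 2.53, 2.93, 10.00, 8.65 and 2.74 in MEF2-1 to MEF2-7. Thus 2 lines were high, 1 was intermediate and 4 were low, and the parental line stood at 8.54. In the MEF-1 clonal lines it lay between 2.31 and 2.61. Soga3 on chromosome 10 (29143839 to 29199630, plus strand) had a like order at a range of 7.05, with 3.40, 2.24, 2.11, 2.68, 9.14, 5.37 and 2.16, and 5.06 in the parental line. Its neighbour 9330159F19Rik followed it, at 1.87, 1.23, 1.53, 1.46, 7.43, 3.64 and 1.18. Both overlap the same annotated gene, Gm49353, on the same strand, so that their reads may be shared.

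The promoters of Nnat, Soga3 and of 3 genes with a single outlying line, described next, are shown since methylation in clonal lines was the subject of the study and these are the genes among those whose level differed most between clones. The CpG, in capitals, number 17 for Nnat (chr2:157559828-157560127, plus strand), 8 for Soga3 (chr10:29143746-29144045, plus strand), 31 for Tmem132e (chr11:82388650-82388949, plus strand), 25 for Igf2bp3 (chr6:49214905-49215204, minus strand) and 5 for Eda2r (chrX:97377160-97377459, minus strand). The set of windows is that described above, with a median of 19. TATAAA is found in the Eda2r window. Methylation of these windows was not analysed here. CpG content could not be compared between wide and narrow genes as sets, since only 68.2% of the highest 10% by SD had a window against 81.5% of the lowest 10%.
Nnat: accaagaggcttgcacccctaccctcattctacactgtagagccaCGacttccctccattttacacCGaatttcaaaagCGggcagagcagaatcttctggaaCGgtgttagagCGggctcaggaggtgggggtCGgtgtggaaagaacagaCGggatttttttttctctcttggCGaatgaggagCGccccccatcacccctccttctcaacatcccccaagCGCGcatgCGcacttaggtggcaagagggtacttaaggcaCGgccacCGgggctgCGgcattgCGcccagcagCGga
Soga3: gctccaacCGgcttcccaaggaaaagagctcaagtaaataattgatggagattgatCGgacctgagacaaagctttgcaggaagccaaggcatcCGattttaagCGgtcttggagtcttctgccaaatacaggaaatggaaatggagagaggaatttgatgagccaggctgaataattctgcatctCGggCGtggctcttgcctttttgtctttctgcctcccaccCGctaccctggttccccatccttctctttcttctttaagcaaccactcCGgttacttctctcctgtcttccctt
Tmem132e: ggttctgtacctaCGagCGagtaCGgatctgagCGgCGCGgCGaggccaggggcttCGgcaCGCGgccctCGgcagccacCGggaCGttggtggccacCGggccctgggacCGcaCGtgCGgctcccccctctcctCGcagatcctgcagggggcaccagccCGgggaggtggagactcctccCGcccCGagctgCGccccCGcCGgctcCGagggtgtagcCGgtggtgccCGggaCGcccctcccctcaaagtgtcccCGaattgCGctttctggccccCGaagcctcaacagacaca
Igf2bp3: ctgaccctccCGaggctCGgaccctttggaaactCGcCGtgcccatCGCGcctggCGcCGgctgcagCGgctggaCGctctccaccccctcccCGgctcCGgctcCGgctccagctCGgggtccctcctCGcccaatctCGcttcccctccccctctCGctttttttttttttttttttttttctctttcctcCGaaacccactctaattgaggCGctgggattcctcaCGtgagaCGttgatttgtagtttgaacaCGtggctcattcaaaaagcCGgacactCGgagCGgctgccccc
Eda2r: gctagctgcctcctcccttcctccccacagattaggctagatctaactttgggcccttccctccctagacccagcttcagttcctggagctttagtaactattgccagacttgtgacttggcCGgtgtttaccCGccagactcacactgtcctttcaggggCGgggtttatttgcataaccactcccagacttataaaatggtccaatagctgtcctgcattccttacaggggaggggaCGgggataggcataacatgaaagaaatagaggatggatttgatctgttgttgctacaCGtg

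A single line stood apart in 130 genes. A gene was counted when the highest or lowest line was at least 1 from the next line and this gap, as a share of the range, was above Dixon's 95% critical value for 7 values. Single-line highs numbered 78 (0.511% of genes) and single-line lows 52 (0.34%). Without the minimum gap the Dixon value alone was passed by 7.27% of genes, which includes many small differences. MEF2-3 carried 32 of the highs and 8 lows, MEF2-5 carried 11 highs and 24 of the lows, and MEF2-7 had 16 highs and 4 lows. MEF2-6 had 9 and 7, MEF2-1 6 and 3, MEF2-4 2 and 4 and MEF2-2 2 and 2. The highs were mostly of low genes, with a median 16-line mean of 4.72 against 8.52 for the lows. At a mean of 5 or more, 34 of 78 highs and 47 of 52 lows remained.

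**Figure D3:**
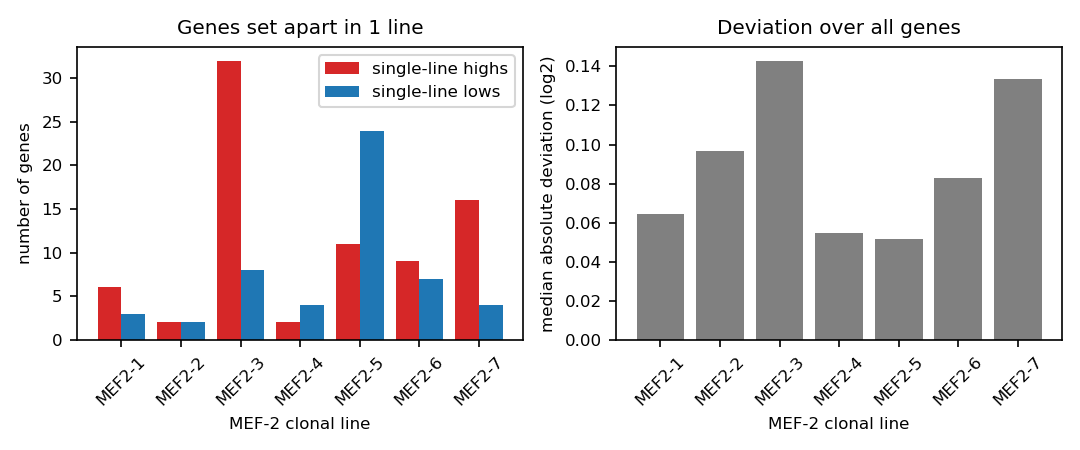
Single-line highs and lows per MEF-2 clonal line, as numbers of genes (left, y axis) for each line (x axis), and the median absolute deviation of each line over all genes on the log2 scale (right, y axis). MEF2-3 has the most highs (32) and the largest deviation (0.143), and MEF2-5 the most lows (24) and the smallest deviation (0.0518).

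MEF2-5 carried more lows than any other line. Tmem132e, a transmembrane protein, lies on chromosome 11 at 82388900 to 82446332 and read 10.48, 10.21, 10.44, 9.56, 4.66, 10.46 and 9.56. The MEF2-5 value was near that of the MEF-1 clonal lines (4.11 to 4.33), and the parental line of MEF-2 stood at 10.55. Apbb1ip, an adaptor that links Ras family GTPases to talin, read 8.42, 8.99, 8.71, 9.19, 5.15, 8.61 and 9.56. Six2, a homeobox factor of mesenchyme and kidney progenitors, stood at 3.58 in MEF2-5 and 6.27 to 6.97 elsewhere, and Arhgap32 at 8.75 against 10.98 to 11.46. Six2 and Arhgap32 were chosen after their values were seen.

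Among its highs was Igf2bp3, a fetal RNA-binding protein that binds Igf2 mRNA, for which MEF2-5 was the clone nearest to the parental line. It lies on chromosome 6 at 49085223 to 49214957 (minus strand). It read 5.68, 5.78, 5.63, 5.97, 9.53, 5.66 and 6.16, with 9.60 in the parental line and 9.76 to 10.96 in the MEF-1 clonal lines. Thus 6 clones were low and 1 was at the parental level. Soga3 and 9330159F19Rik belonged to the same group of 6 genes with a gap of 2 or more below MEF2-5 alone. For both of these the parental line stood with the low lines. For Galnt17, also of this group, it stood on the side of MEF2-5 (4.62), and for Rab38 and Chst5 between.

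MEF2-3 carried more highs than any other line. AW551984, a little studied gene, stood at 7.42 against at most 1.77 in the other 6, with 3.10 in the parental line. Xlr, of an X-linked family of lymphocyte-regulated genes with close paralogues, stood at 7.42 against 3.68 to 4.97. Rag1, a subunit of the V(D)J recombinase, stood at 5.80 against 2.20 to 3.13, and was chosen after its values were seen, as were Plek, pleckstrin (2.45 against 1.11 to 1.31) and Cnrip1 (5.25 against 2.18 to 3.23), which lie 0.795 kb apart. The lows in MEF2-3 included Yy2, a retroposed relative of Yy1, at 4.40 against 6.45 to 7.71. Yy2 lies within Mbtps2, so its reads may be shared.

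Highs in MEF2-7 included Hydin, a protein of the central apparatus of motile cilia, which read 2.55, 1.94, 2.20, 1.70, 2.35, 1.95 and 8.53 and which was at 1.68 in the parental line. Acvrl1, a type I receptor of the TGF-beta family best known from endothelium and chosen after its values were seen, stood at 8.37 against at most 4.40 in the others. Among its 4 lows were AL732309.1, at 4.35 against 7.06 to 7.80, which overlaps Ndor1, and Ecm2, a matrix protein, at 6.69 against 7.95 to 8.90. In MEF2-6 the highs included Tert, the catalytic subunit of telomerase, and Dlx5, a homeobox factor of limb and branchial arches. Tert read 5.52, 5.01, 5.66, 5.18, 5.50, 7.36 and 5.14, against 7.23 in the parental line and 8.47 to 9.17 in the MEF-1 clonal lines, so that MEF2-6 was the clone nearest to the parental line. Dlx5 stood at 7.40 against 4.78 to 5.88. Its neighbour Dlx6, chosen after its values were seen, was also highest in MEF2-6, at 2.03 against 1.25 to 1.44. Tfap2a, a factor of neural crest and limb ectoderm, was low there, at 7.19 against 9.22 to 10.25, and Aass, an enzyme of lysine breakdown, at 6.53 against 8.48 to 9.72.

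In the 3 remaining lines, single-line calls were few. MEF2-1 was high for Nnmt, nicotinamide N-methyltransferase (6.16 against 3.29 to 3.78, with 6.23 in the parental line), and for Serpina3n, a secreted protease inhibitor with close paralogues (7.61 against 4.01 to 5.36). It was low for Mansc1 (7.57 against 8.81 to 9.37) and Zxdb (8.87 against 10.01 to 10.18). MEF2-2 was low for Eda2r, the X-linked receptor of ectodysplasin A2 and a target of p53, at chromosome X 97333840 to 97377216. It read 10.62, 6.81, 10.14, 10.41, 10.86, 10.31 and 10.20, with 10.50 in the parental line and 5.86 to 7.79 in the MEF-1 clonal lines. MEF2-2 was also low for Dpep1, a membrane dipeptidase, at 4.25 against 6.02 to 7.03. MEF2-4 was high for Synpo2, an actin-binding protein of muscle, at 11.23 against 9.21 to 10.10. It was low for Kazn, kazrin, at 5.06 against 7.35 to 8.59 (9.50 in the parental line), and for Trim30d, of an interferon-regulated family, at 5.20 against 7.59 to 9.13. Trim30a, its neighbour and close paralogue and chosen after its values were seen, was also lowest in MEF2-4, at 4.29 against 5.37 to 7.59.

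**Figure D4:**
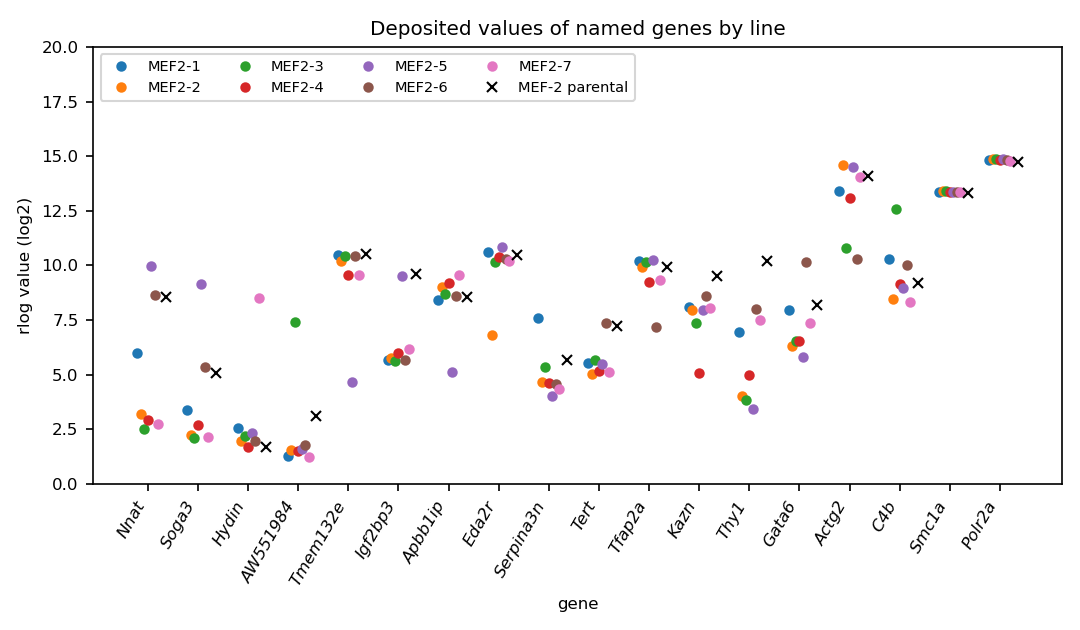
Values of named genes (x axis) in the 7 MEF-2 clonal lines (coloured points) and the MEF-2 parental line (crosses). The y axis is the deposited rlog value (log2) and each point is 1 line. Tmem132e is at 4.66 in MEF2-5 and 9.56 or more in the other MEF-2 clonal lines, and Igf2bp3 is at 9.53 in MEF2-5 and 6.16 or less in the others.

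The MEF-2 parental line, with 1 library, was set beside these calls. For 45 of 78 single-line highs the parental line lay beyond the other 6 clones on the side of the single line, for 22 it lay among the other 6, and for 11 beyond them on the far side. For the 52 lows these numbers were 20, 24 and 8. A parental value counted as beyond the other 6 at any distance, however small. The calls require these 6 to lie close together for the range of the gene, and the share over all genes was not computed. The counts are therefore no measure of likeness between the parental line and the single line. A parental line is a mixture of cells, and its value is an average over them. In the set of MEF-1 clones, which these calls did not use, 33 of 78 highs (42.3%) and 11 of 52 lows (21.2%) had a range of 2 or more, against 5.62% of all genes and 37.1% of the 711 genes with a range of 2 or more in MEF-2. With low genes wide in both sets, level is shared by these groups, and its part was not tested.

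A wide gap could also split the lines in other ways. In 69 genes (0.452%) the largest gap between neighbouring values was 2 or more. Of these, 26 had 1 high line, 17 had 6 high lines, and 26 had between 2 and 5. The commonest patterns were 10 genes low in MEF2-5 alone, among them Tmem132e, Apbb1ip, Six2 and Crabp1, 10 high in MEF2-3 alone, 6 high in MEF2-5 alone and 6 high in MEF2-7 alone. Crabp1, a retinoic acid-binding protein, read 6.87, 6.66, 6.30, 8.09, 3.78, 7.85 and 9.30. The parental line stood with the high lines in 27 of the 69, with the low lines in 18 and between them in 24. A value counted as between at any distance from either group, however small. For Rps12-ps3 the parental value was 11.67, just below high lines at 11.81 or more. For AL732309.1 it was 4.36, just above the low line at 4.35. The 24 are therefore not a count of intermediate parental levels.

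Some neighbouring genes shared their outlying line. Of 83 genes with a single-line call and a measured neighbour within 100 kb, 22 (26.5%) had a neighbour farthest out in the same line and direction. This share was 24.1% of genes with a range of 2 or more and 14.0% of all genes. Overlapping genes and paralogues that share reads, such as Soga3 with 9330159F19Rik and Trim30d with Trim30a, are in these counts.

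MEF2-3 had low expression across 2 whole chromosomes. For 1061 genes of chromosome 2 above the 40th percentile of the mean, the median value in MEF2-3 minus the median of the other 6 lines was −0.26, a level of 83.6%, and for 463 genes of chromosome 14 it was −0.24, a level of 84.5%. On chromosome 2, MEF2-3 was the lowest of the 7 lines in 638 genes (60.1%), and on chromosome 14 in 258 (55.7%), against 21.1% on the other autosomes and 25.4% of all 13086 genes above that percentile. It was below the median of the others in 863 genes of chromosome 2 (81.3%) and in 375 of chromosome 14 (81.0%). The parental line gave differences of the same size, −0.26 and −0.24.

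The low level ran along both chromosomes. All 19 windows of 10 Mb on chromosome 2 had a median below 0, from −0.34 to −0.14, as did the 12 windows with at least 5 genes on chromosome 14, from −0.35 to −0.06. The difference depended on the level of the gene. On chromosome 2 it was −0.07 for means between 3.8 and 8, −0.21 between 8 and 10, −0.26 between 10 and 12 and −0.32 above 12, where 93.2% of genes were lower. On chromosome 14 the values at these levels were −0.13, −0.27, −0.22 and −0.30, smaller between 10 and 12 than between 8 and 10. As the values of genes with few reads are drawn towards the gene average, a smaller difference there is a property of the unit as well. DNA copy number was not analysed here. From the read coverage of its bisulfite libraries, the study named chromosomes 12, 18 and 19 as aneuploid in some of the lines. It proposed trisomy 19 for the MEF-2 lines and did not name chromosomes 2, 14 or 10. After centring each line, the medians were −0.207 for chromosome 2 and −0.196 for chromosome 14. The only other median beyond 0.1 in an autosome of any MEF-2 clonal line was that of chromosome 10 in MEF2-4.

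Single genes on these chromosomes departed from the shared shift in both directions. Grem1, a secreted BMP antagonist on chromosome 2, read 13.67, 13.91, 11.52, 13.97, 14.15, 12.95 and 14.16, or −2.43 from the median of the others in MEF2-3. Gm14308, of the zinc finger family with near-identical copies, stood at 5.84 against 7.90 to 8.36, and Nkain4 at 4.90 against 5.90 to 7.80. Higher in MEF2-3 in spite of the low chromosome were Galnt13, a glycosyltransferase (5.48 against 3.35 to 4.17), Frmd5 (10.36 against 8.09 to 9.72) and Gbgt1 (5.43 against 2.97 to 5.03). On chromosome 14, Shisa2, an inhibitor of Wnt and FGF receptors, was lowest in MEF2-3 at 4.77 against 5.80 to 7.49, and Ldb3, a Z-disc protein, at 7.77 against 8.14 to 10.31. Ephx2, an epoxide hydrolase, stood at 3.75, within the span of the others (3.53 to 7.12). Slitrk6, a neuronal adhesion protein, was high there, at 3.94, 3.58, 8.25, 3.43, 6.18, 5.12 and 3.94, followed by Scara5, a ferritin receptor, at 13.71 against 9.18 to 13.56, and Clu, clusterin, at 12.84 with MEF2-1 at 13.06.

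In MEF2-4 chromosome 10 was high. The median over 657 genes was 0.14 above the median of the other 6 lines, a level of 110%, MEF2-4 was the highest of the 7 lines in 232 of them (35.3%), against 7.32% on the other autosomes and 8.81% of all genes, and 81.1% lay above the median of the others. The mitochondrially encoded genes had medians of −0.19, −0.01, −0.07, 0.38, 0, 0.10 and −0.17 in MEF2-1 to MEF2-7, so that MEF2-4 was also the line highest for these. Once the chromosome medians were taken away, their 13 genes had a spread 1.02 times that of genes of like mean. That median was computed over the same 13 genes, so what they share was removed by construction. The ratio therefore says nothing of their shared differences between lines.

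**Figure D5:**
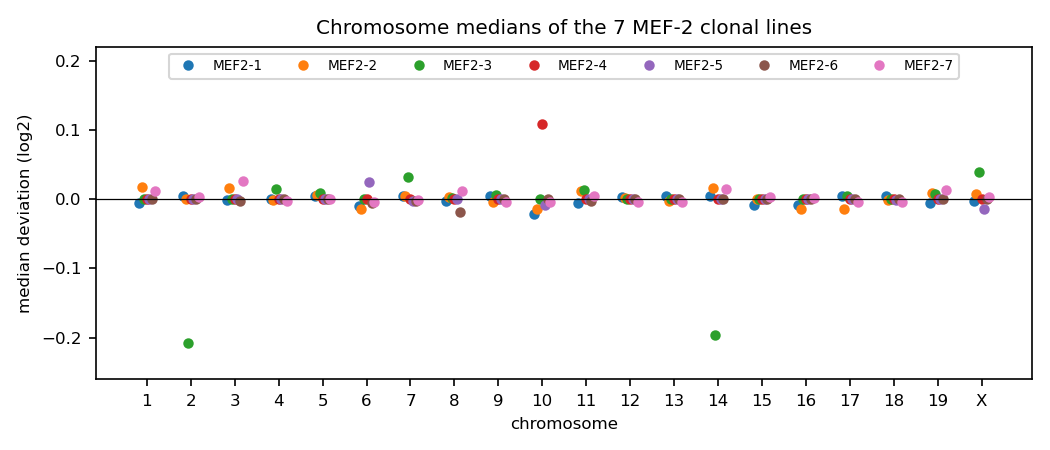
Chromosome medians of the MEF-2 clonal lines. The axes are chromosome and the median over genes of the value minus the median of the 7 lines, centred on each line (log2), with 1 point per line. MEF2-3 lies at −0.207 on chromosome 2 and −0.196 on chromosome 14, and MEF2-4 at 0.109 on chromosome 10.

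The spread was then set against that of the 7 MEF-1 clonal lines, treated in the same way. All clones of a set come from a single parental line and embryo, so the comparison holds for these parental lines only. Embryo and sex differ with the set, and their parts cannot be told apart. MEF-1 clones had a median SD of 0.185 against 0.159 in MEF-2, and 858 genes with a range of 2 or more (5.62%) against 711. The median absolute deviation per line was 0.0896 ± 0.0369 in MEF-2 and 0.104 ± 0.0246 in MEF-1 (SD, n = 7 lines each), a difference of −0.0149 that was within the spread between lines (exact permutation test, two-sided, p = 0.382, 3432 splits). Genes wide in one set tended to be wide in the other. Of the 1528 genes in the highest 10% of SDs in MEF-2, 678 (44.4%) were in the highest 10% in MEF-1, and of those in the lowest 10% 496 (32.5%) were in the lowest. Of 711 genes with a range of 2 or more in MEF-2, 264 (37.1%) had one in MEF-1, which are 30.8% of the 858 there. Pearson's r of the log2 SDs across genes was 0.656. These SDs were not set against genes of like mean, and the spread depended on level in both sets. For means between 5 and 8 the median SD was 0.371 in MEF-2 and 0.418 in MEF-1, and above 10 it was 0.115 and 0.133. The part of level in this overlap was not tested. Single-line highs numbered 106 in MEF-1 (0.694%) and lows 33 (0.216%).

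Gene by gene, the absolute deviations from the set mean were compared with limma and Benjamini-Hochberg adjustment over all 15278 genes. The spread was larger in MEF-2 for 82 genes (0.537%) and smaller for 265 (1.73%). This call rested on low genes and on the use of absolute deviations. Of the 347 genes 231 had a mean under 5, a fit restricted to means of 5 or more called 23 genes, 3 larger and 20 smaller, and with squared deviations limma called 0, with 480 larger and 1145 smaller at an unadjusted p under 0.05. The 20 included 3 Y-linked genes, Kdm5d, Eif2s3y and Uty, whose MEF-2 values are those of a line without a Y chromosome. The genes named below are among the 23, except Nnat and Thy1.

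Among the genes narrower in MEF-2 were 2 Hox genes of the B cluster. Hoxb9, which marks a trunk position, read 4.05, 3.85, 3.78, 3.82, 3.79, 3.69 and 4.31 in MEF2-1 to MEF2-7 and ran from 4.34 to 12.87 in MEF-1, an SD of 0.213 against 3.89 (limma adjusted p = 2.6e-14). Its neighbour Hoxb8 lay between 2.85 and 3.16 in MEF-2 and between 3.45 and 10.79 in MEF-1 (limma adjusted p = 5.1e-06). Cpxm2, a secreted carboxypeptidase-like protein, had an SD of 0.065 against 3.24 (limma adjusted p = 0.00026). All 3 stood at or below 4.31 in every MEF-2 clonal line, so a narrow spread here is that of genes near their lowest level. They were chosen after their values were seen. Over the Hox list the median SD was 0.157 in MEF-2 and 0.352 in MEF-1.

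Among the genes wider in MEF-2 was Anxa2. Anxa2, a calcium-dependent membrane-binding protein abundant in fibroblasts, read 13.11, 14.64, 12.88, 13.86, 13.64, 13.60 and 14.83, with 14.71 in the parental line, while the MEF-1 clonal lines lay between 14.75 and 14.96 (SD 0.726 against 0.0731, limma adjusted p = 0.0096). MEF2-2 and MEF2-7 stood at the parental level and the other 5 below it. Arhgap32 had an SD of 0.937 against 0.0518 (limma adjusted p = 0.013), which rested on MEF2-5: without that line its adjusted p was 0.079. Nnat, at 2.31 to 2.61 in the MEF-1 clonal lines, had an SD of 3.08 against 0.11 (limma adjusted p = 0.00096). Thy1 was also wider in MEF-2, with 2.72 to 3.43 in the MEF-1 clonal lines (limma adjusted p = 0.015). With squared deviations none of the calls named here held. Anxa2 and Arhgap32 were chosen after their values were seen.

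Some lists had a larger spread in one set than the other, with no test of a list. The median SD of mitosis genes was 0.296 in MEF-2 and 0.548 in MEF-1, and that of replication-dependent histones 0.263 and 0.709. Interferon-stimulated genes had 0.277 and 0.498. Laminins, with 11 genes, stood the other way, at 0.394 in MEF-2 and 0.247 in MEF-1, as did glycolysis and hypoxia genes at 0.272 and 0.206. Over all genes the corresponding medians were 0.159 and 0.185.

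The 7 clones also stood away from the parental line as a group in some lists. For each gene the mean of the 7 clones was subtracted from the parental value, and then the median of this difference over all genes. The list median was 0.57 for sterol and fatty acid synthesis, 0.38 for laminins, 0.38 for endothelial genes and 0.33 for replication-dependent histones. It was 0.29 for collagens, 0.24 for mitosis and 0.22 for epithelial genes, and −0.30 for interferon-stimulated genes. Sqle, squalene epoxidase, read 13.72 in the parental line and 12.46 to 13.35 in the clones. With 1 parental library, differences between parental and clonal lines cannot be told apart from a difference between libraries. The parental value is also that of a mixture of cells, whereas the clone mean is taken over log2 values, so they are unlike averages.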

How the data were processed

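Total RNA of 16 lines was sequenced with 1 library per line, and groups followed the sample labels. The deposited values are log2 values (rlog of DESeq2 1.24.0) that the authors made from Salmon 1.5.2 quantification against mm10 after trimming with Trim Galore 0.6.0. They are scaled by size factor, shrink each gene's lines to its average, and hold no counts, so the depth per line is unknown and no counting interval is given. Of 54453 identifiers 54130 were found in GENCODE vM21 (mm10 coordinates, 1-based) and 323 were not. The table had 0 columns of samples outside the series.

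For each line and chromosome, the median over genes above the 40th percentile of the 16-line mean (3.8, 13086 genes) of the value minus the median of the 7 lines of its set was taken away. Single lines were called at a gap of 1 or more past Dixon's 95% critical value, and two-state genes at a largest gap of 2 or more. Spread was compared between MEF-2 and MEF-1 clones with limma 3.58.1 (R 4.3.3) on absolute deviations with a trended prior, a Benjamini-Hochberg adjusted p under 0.05 being a call, and per line with an exact permutation test. As each clone has 1 library, p-values measure the spread between clones, technical differences included. Clones of a set share their parental line and embryo, so the p-values do not reach beyond these parental lines. Same-numbered MEF-1 and MEF-2 clones are different cells. The code was run on simulated normal values with planted differences, which checks the code and not the calls made here. Python 3.11.15 (numpy 2.4.6, pandas 2.3.3, scipy 1.17.1, matplotlib 3.10.9) was used.

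Genes named were the widest, the narrowest, the single-line genes with the largest gaps of each line, the widest and narrowest of each list, markers, and the genes of chromosomes 2 and 14 that departed most in MEF2-3; others are named as list members or as chosen after their values were seen. The members, rule and 60 gene lists, of which 43 are described, were chosen with earlier results of these data known, so none of these patterns is independent support. Alternatives changed the filter, scaling, gap, deviation and the lines used.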

Additional observations from a re-analysis of the deposited data

Results flagged for a closer look

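The rules for a closer look were met by 44 of 153 genes examined, by 9 of 21 chromosomes and by 3 of 43 gene lists, in each of which 1 of the 7 MEF-2 clonal lines lay outside by Dixon's 95% critical value. The nominal rate is about 1 in 20, but 7.27% of all genes measured passed the critical value. Many of the genes had been chosen for a single line, and no explanation was weighed. Values of genes are the gap to the next line on the log2 scale, with chromosome medians taken away. Values of chromosomes and lists are the medians themselves.

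Highs of MEF2-7 were Gm28635 (12.7), Hydin (5.96) and Acvrl1 (3.99), and its lows AL732309.1 (2.85) and Ecm2 (1.26). In MEF2-3, highs were AW551984 (5.65), Rag1 (2.88), Xlr (2.42), Cnrip1 (2.01), Galnt13 (1.53), Penk (1.13), Plek (1.12), Hoxb4 (1.03), Mmp2 (0.157), mt-Nd2 (0.0923) and Sugp1 (0.0282), and lows were Yy2 (2.11), Gm14308 (1.85) and Tet3 (0.199). In MEF2-5, highs were 9330159F19Rik (3.80), Igf2bp3 (3.35), Thbs4 (0.122) and Barx1 (0.114), and lows Tmem132e (4.90), Apbb1ip (3.27), Six2 (2.69) and Arhgap32 (2.24). In MEF2-6, highs were Tert (1.70), Dlx5 (1.52), Dlx6 (0.595) and Dolk (0.0308), and lows Tfap2a (2.03) and Aass (1.97). In MEF2-1, highs were Nnmt (2.38), Serpina3n (2.24) and Cfb (0.168), and lows Mansc1 (1.23), Zxdb (1.11) and Kdm5d (0.000591). MEF2-2 was low for Eda2r (3.31) and Dpep1 (1.78). MEF2-4 was high for Synpo2 (1.16) and low for Trim30d (2.35) and Kazn (2.28). The gaps of Sugp1, Dolk, Kdm5d, mt-Nd2, Barx1, Thbs4, Mmp2, Cfb and Tet3 are under 0.2 and were past the critical value only because the other 6 lines lay close together.

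The chromosome medians outside the others belonged to MEF2-3 for chromosomes 2 (−0.207), 14 (−0.196), 4 (0.0146), 7 (0.0321) and X (0.0393), to MEF2-4 for chromosome 10 (0.109), to MEF2-5 for chromosome 6 (0.0255), to MEF2-2 for chromosome 17 (−0.0136) and to MEF2-1 for chromosome 15 (−0.0087). Those of chromosomes 4, 6, 7, 15, 17 and X are small and passed only because the other lines, after centring, lay close together. The nominal rate does not apply to them. Among list medians, MEF2-3 stood apart for macrophage and blood cell genes (−0.184) and mitochondrially encoded proteins (0.0709), and MEF2-7 for matricellular proteins (−0.0546). For the mitochondrially encoded proteins, and for mt-Nd2 above, the chromosome median taken away was that of these genes themselves.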

How the results depend on the processing

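Counts and values moved under these settings. With MEF2-3 and MEF2-7 left out, an alternative chosen after seeing the data, 1733, 382 and 25 genes had ranges of 1, 2 and 4 or more. At a mean of 5 or more, 32 genes had a range of 4 or more, 81 a single outlying line (34 highs), 37 were two-state and 23 differed in spread (3 larger, 20 smaller). Without chromosomes 2, 12, 14, 18, 19, X and Y, 31 genes had a range of 4 or more. At a gap of 2 or more, 34 single-line calls were left, 18 highs and 16 lows. With squared deviations limma called 0 genes, 0 larger and 0 smaller. The centred medians of chromosomes 2 and 14 in MEF2-3 were −0.175 and −0.162 over all genes with a mean above 0, −0.268 and −0.246 against the mean of the 14 clonal lines, and −0.261 and −0.239 against the mean of the other 6 lines.

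Leaving out 1 line at a time gave 2218 to 2582, 538 to 677 and 37 to 52 genes with ranges of 1, 2 and 4 or more, 106 to 183 single-line calls (60 to 120 highs, the most without MEF2-2, and 35 to 63 lows), 63 to 84 two-state genes, 209 to 427 genes with a difference in spread (48 to 100 larger, 143 to 371 smaller), a per-line difference of −0.0217 to −0.00768, and 30 to 32 lists above the median SD of all genes (31 of 43 with all lines). The call for Gm28635 was lost without MEF2-7 (limma adjusted p = 0.649).

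With the clone number as a replicate block, the per-line p was 0.469 (permutation) and limma called 364 genes (88 larger, 276 smaller). The numbers do not pair the lines: same-numbered deviations correlated at −0.145 to 0.248, over 0.1 in 3 of 7.

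Relative to genes of like mean, the lists of macrophage and blood cell genes (0.950) and germline genes (0.965) came below 1 and those of DNA methylation (1.05) and the proteasome (1.27) above it, reversing their side of the median of all genes, as did mitochondrially encoded genes (1.29) without chromosome medians. Of 430 settings of lists 395 stayed within their spread, 30 moved and 5 reversed. Of 1216 settings of the range of named genes 100 moved, and of 2697 of their difference in spread 66 lost and 33 gained the threshold. Alternatives for promoter composition were not run, since too few genes had a window. Without counts, depth limits low genes by an unknown amount. Causes were not tested.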
